A study of Sus scrofa with 63 samples.

Results

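Claudins and the other genes of epithelial junctions were followed in the jejunum of fetal pigs over the last part of gestation. The list held 39 gene symbols, and every probe of the array whose annotated gene name equals one of them was taken. Probes were present for 36 of the 39 genes, 20 claudins and 16 others, with 82 of the 60305 probes of the array. No probe carried the name of DSP, DSG2 or CDH17. Of the 82 probes, 66 passed the filter on dim spots described below, and they measured 27 genes, of which 12 were claudins.

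The RNA came from the middle part of the jejunum of 63 fetuses, 1 fetus per array, of the Large White (LW) and Meishan (MS) breeds and both reciprocal crosses, at day 90 or day 110 of gestation. LWMS fetuses had a LW sire and a MS sow, and MSLW fetuses had a MS sire and a LW sow. At day 90 there were 9 LW, 8 MSLW, 9 LWMS and 6 MS fetuses, and at day 110 there were 9 LW, 6 MSLW, 9 LWMS and 7 MS fetuses. All were untreated, and all were male according to the study's methods, in which sows of each breed carried purebred and crossbred litter mates after insemination with the semen of both breeds. The sow of each fetus is not in the labels, so litter mates were counted as independent fetuses and p-values measure the spread between fetuses only. Litter mates share the breed of their sow and the day of sampling. The p-values for age, for sow breed and for other comparisons across sow breeds, such as MS with LW, may therefore be too small.

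Claudins are membrane proteins that line up in tight junctions, the seals between neighbouring epithelial cells, and decide which ions pass between the cells. Some claudins form pores, as CLDN2 and CLDN15 do for cations in the small intestine, and others tighten the seal. Occludin (OCLN) and the MARVELD proteins share the junction with them, TJP1 and TJP3 (ZO-1 and ZO-3) and cingulin (CGN) tie it to the actin skeleton, and the junctional adhesion molecules F11R, JAM2 and JAM3 bind cells together beside it. Below the tight junction lie adherens junctions, made of E-cadherin (CDH1) and catenins such as CTNNA1 and CTNND1, and desmosomes, which hold desmocollins (DSC2), plakoglobin (JUP) and plakophilin (PKP2). EPCAM is an adhesion molecule of epithelial cells that binds and stabilizes claudins such as CLDN7.

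The probes of the genes that the results turn on show what was read, since a probe reports only the transcripts that hold its 60 bases. The probes of CLDN15, CLDN2, CLDN3 and CLDN5 are shown because they stand for the pore-forming, sealing and endothelial claudins that differed between ages, and those of CLDN12 because it differed between sires. Each is written 5′ to 3′ as in the deposited scanner files, and capitals mark the 55 bases that a pair of CLDN2 probes have in common.
CLDN15, probe A_72_P356028: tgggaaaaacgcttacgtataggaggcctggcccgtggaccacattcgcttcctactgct
CLDN15, probe O14529: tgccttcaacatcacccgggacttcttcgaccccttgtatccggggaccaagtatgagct
CLDN2, probe A_72_P290634: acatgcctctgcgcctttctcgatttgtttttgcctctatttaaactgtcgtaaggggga
CLDN2, probe O5973: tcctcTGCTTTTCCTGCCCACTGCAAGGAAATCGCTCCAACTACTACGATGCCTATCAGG
CLDN2, probe A_72_P014631: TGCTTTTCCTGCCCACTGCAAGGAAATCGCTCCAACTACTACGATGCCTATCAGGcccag
CLDN3, probe A_72_P441025: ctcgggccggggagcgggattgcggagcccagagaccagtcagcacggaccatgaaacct
CLDN3, probe A_72_P366398: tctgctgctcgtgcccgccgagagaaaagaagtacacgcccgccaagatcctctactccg
CLDN5, probe A_72_P358883: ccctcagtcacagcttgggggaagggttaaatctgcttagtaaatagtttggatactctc
CLDN5, probe A_72_P444320: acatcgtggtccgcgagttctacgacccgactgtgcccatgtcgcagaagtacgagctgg
CLDN12, probes A_72_P198317 and O1511: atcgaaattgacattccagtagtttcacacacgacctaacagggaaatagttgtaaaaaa
CLDN12, probe A_72_P440991: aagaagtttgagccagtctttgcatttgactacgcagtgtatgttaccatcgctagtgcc

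Outside that pair, these probes shared at most 7 bases in a row with another probe of the same gene, so the probes of CLDN15, CLDN3 and CLDN5 read separate stretches of their transcripts. The G and C content ran from 35.0% in the repeated CLDN12 sequence to 66.7% in a CLDN3 probe. The 82 probes held 79 different sequences, because CLDN12, CLDN11 and CLDN7 each had 1 sequence printed under 2 probe names. Such a pair is 1 measurement of the gene and not 2. All 36 gene symbols were found in the RefSeq gene table of the Sscrofa11.1 assembly. In that table CLDN3 is the neighbour of CLDN4, CLDN1 of CLDN16, CLDN8 of CLDN17 and OCLN of MARVELD2. The array's own genome build is not given in the sources used here, so no coordinates are given.

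Levels are on a log2 scale relative to the 75th percentile of spot intensity of the same array, so a level of 0 is as bright as that percentile and a difference of 1 is a doubling of brightness. They were not compared between probes. Each gene is given by its brightest tested probe, and its other probes are named where they disagree. The share of spots well above background ran from 51.2% to 87.6% over the 63 arrays. The filter kept a probe if, in any of the 8 groups, 75% or more of the arrays had it well above background, and 40515 probes passed it.

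The array of MS fetus 632 at day 110 stood apart from all others, and much in these genes depends on it. On it, 3133 tested probes lay more than 2 log2 units from the median of their group, against 71 to 892 on 57 arrays. The other arrays above 1000 such probes were those of fetuses 484 (LW, day 90; 2865), 469 (LW, day 110; 2027), 532 (MS, day 90; 1897), 851 (MSLW, day 110; 1484) and 623 (MS, day 110; 1258).

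In fetus 632 CLDN15 was at -3.90 against 1.68 to 3.81 in the other 62 fetuses, and CLDN2 was at 1.41 against 2.47 to 3.97. CLDN8, a sealing claudin of the distal colon, was at 0.95 against -7.90 to -2.33. CLDN3 (4.20), JUP (4.23) and F11R (3.93) were higher than in any of the other 62. Further genes, chosen after their values were seen, moved with these. The enterocyte gene FABP2 was at 0.20 against 2.28 to 8.05, and lactase (LCT) at -1.30 against 1.06 to 6.44. The HOX gene HOXD10 was at 3.45 against -5.98 to -2.27, and carbonic anhydrase CA1 at 3.98 against -7.77 to -1.39. EPCAM, at 5.71, lay within the range of the others. The fetus is labelled jejunum like the rest, the origin of these values was not tested, and results that change without it are given with and without it.

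Markers of the cell types in whole jejunum bear on every age difference, because a gene of 1 cell type can change with the share of those cells or with RNA per cell, and these cannot be told apart in whole tissue. Of 8 epithelial markers with a probe, ALPI and LGALS4 were higher at day 110, by 2.47 ± 0.34 and 0.73 ± 0.11 (SE; limma, adjusted p = 1.89e-08 and 5.75e-07), and KRT19 differed by -0.49 (limma, adjusted p = 4.5e-04), short of the fold threshold, and fell by 0.54 without fetus 632 (adjusted p = 2.72e-05). Their summed level had group medians of 259 to 304 at day 90 and 382 to 444 at day 110, where an intensity at the 75th percentile counts as 1. Of 6 fibroblast markers COL1A1 and COL1A2 were lower, with summed medians of 153 to 202 and then 99.2 to 127. Lower too were ACTA2 among 7 smooth muscle markers, ELAVL4, STMN2 and UCHL1 among 6 markers of enteric neurons and glia, and WT1, the 1 mesothelial marker with a probe. None of the 6 endothelial markers tested, the 6 leukocyte markers or the 2 tested liver or pancreas markers passed with all 63 fetuses. Without fetus 632 the B cell gene CD79B fell by 0.94 (limma, adjusted p = 0.00581), the fibroblast gene DCN fell by 0.53 (adjusted p = 7.46e-09) and TTR, which the liver secretes, rose by 0.89 (adjusted p = 6.86e-06). Among 3 tested stomach markers GIF and TFF1 were higher at day 110.

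Between day 90 and day 110, averaged over the 4 genotypes, the claudins that passed the test moved in both directions. CLDN3 and CLDN10 rose and CLDN5 fell, TJP3 fell, and the brightest probes of the remaining 23 of the 27 genes did not pass. A probe was called when its adjusted p (limma, Benjamini-Hochberg over all probes tested) was at most 0.01 and its log2 difference at least 0.5 in size. Of the 66 member probes 10 were called, 6 higher and 4 lower, while 13.8% of all tested probes were called, 6.07% higher and 7.71% lower. By the brightest probe of each gene it was 4 of 27 genes, against 13.6% over the array, so the share of junction genes that changed was close to the background. The median age difference of the 27 genes was 0.038 and that of all tested probes -0.022. When arrays were scaled to their median, 8 member probes were higher and 1 was lower. Of all age calls over the array, 44.1% were higher as reported and 53.1% with that scaling.

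Many differences were smaller than the fold threshold. By adjusted p alone 32 of the 66 probes passed, against 28.5% over the array, and 18 of these 32 measured EPCAM. By genes it was 10 of 27, against 27.8%. Without fetus 632, 12 probes of 7 genes were called, with 14.6% of all tested probes called, and by the brightest probe 6 genes, CLDN15 and CLDN2 being added.

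**Figure D1:**
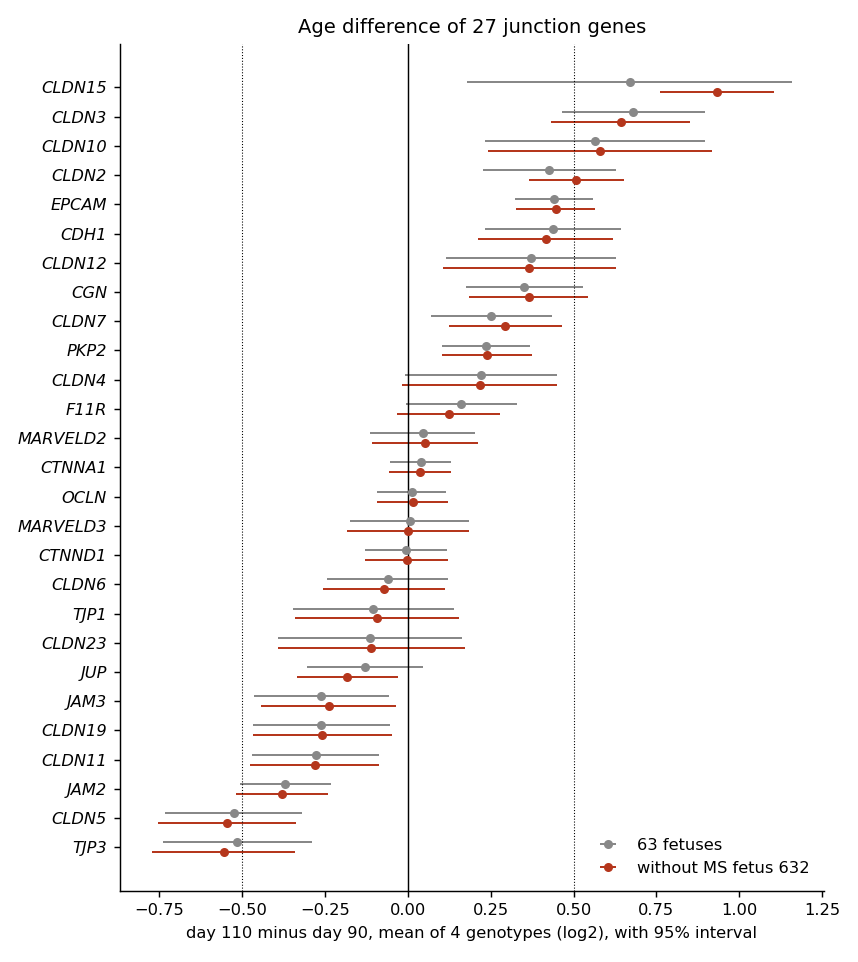
Age difference of the 27 tested junction genes, day 110 minus day 90 averaged over 4 genotypes, on the log2 scale with its 95% interval, with all 63 fetuses and without MS fetus 632. CLDN15, CLDN3 and CLDN10 lie to the right of 0.5, CLDN2 does so without fetus 632, CLDN5 and TJP3 lie to the left of -0.5, and CLDN15 has a far wider interval with fetus 632 than without it.

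CLDN15, the pore-forming claudin of villus and crypt epithelium, had a higher median at day 110 in each of the 4 genotypes, and the test turned on fetus 632. In LW, CLDN15 ranged from 1.68 to 2.63 (median 2.09, n = 9) at day 90 and from 2.38 to 3.81 (median 3.46, n = 9) at day 110. In MSLW, CLDN15 ranged from 1.95 to 2.93 (median 2.36, n = 8) at day 90 and from 2.96 to 3.69 (median 3.32, n = 6) at day 110. The ranges of LW overlapped and those of MSLW did not. In LWMS, CLDN15 ranged from 1.85 to 2.90 (median 2.33, n = 9) at day 90 and from 2.89 to 3.63 (median 3.46, n = 9) at day 110. In MS, CLDN15 ranged from 2.44 to 3.39 (median 2.89, n = 6) at day 90 and from 3.25 to 3.79 (median 3.52, n = 6) at day 110, fetus 632 not counted. The 2 ages overlapped by a small margin in LWMS and more in MS, whose fetuses started at the highest median at day 90. With all 63 fetuses the mean difference was 0.67 ± 0.25 (SE) and missed the threshold (limma, adjusted p = 0.0248). Without fetus 632 it was 0.93 ± 0.086 (SE), a 1.91-fold change with a 95% interval of 0.76 to 1.11 on the log2 scale (limma, adjusted p = 1.39e-13). The second probe, O14529, gave 0.84 without fetus 632 and 0.60 with it.

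By genotype and with fetus 632, no CLDN15 probe was called. The MS difference was then below 0, at -0.38 to -0.37 over the 2 CLDN15 probes. By genotype and without fetus 632, CLDN15 passed in LW (1.16), LWMS (1.0) and MSLW (0.90), and did not in MS (0.68, limma, adjusted p = 0.0181). The difference in change between genotypes was tested itself and was not called (F test in limma, adjusted p = 0.92). Within each of the 8 slides on which the arrays lay, the age difference of CLDN15 was above 0, from 0.49 to 1.21, when fetus 632 was left out, and on 7 of 8 slides with it.

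CLDN2, the cation and water pore of crypt epithelium, was higher at day 110 by less. In LW, CLDN2 ranged from 2.47 to 3.12 (median 2.86, n = 9) at day 90 and from 2.69 to 3.80 (median 3.38, n = 9) at day 110. In MSLW, CLDN2 ranged from 2.66 to 3.18 (median 2.80, n = 8) at day 90 and from 3.15 to 3.88 (median 3.53, n = 6) at day 110. Medians were higher at day 110 in both genotypes carried by LW sows, with ranges that overlapped. In LWMS, CLDN2 ranged from 2.53 to 3.38 (median 3.07, n = 9) at day 90 and from 3.34 to 3.83 (median 3.73, n = 9) at day 110. In MS, CLDN2 ranged from 2.93 to 3.55 (median 3.30, n = 6) at day 90 and from 3.42 to 3.97 (median 3.74, n = 6) at day 110 without fetus 632. Here as well the ranges of the ages overlapped, by little in LWMS. The mean difference was 0.43 ± 0.10 (SE; limma, adjusted p = 0.000477), under the fold threshold, and 0.51 ± 0.072 (SE; adjusted p = 4.82e-08) without fetus 632, just over it. The probe pair with 55 bases in common gave 0.41 and 0.35 with all fetuses. All 8 slides had CLDN2 higher at day 110.

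**Figure D2:**
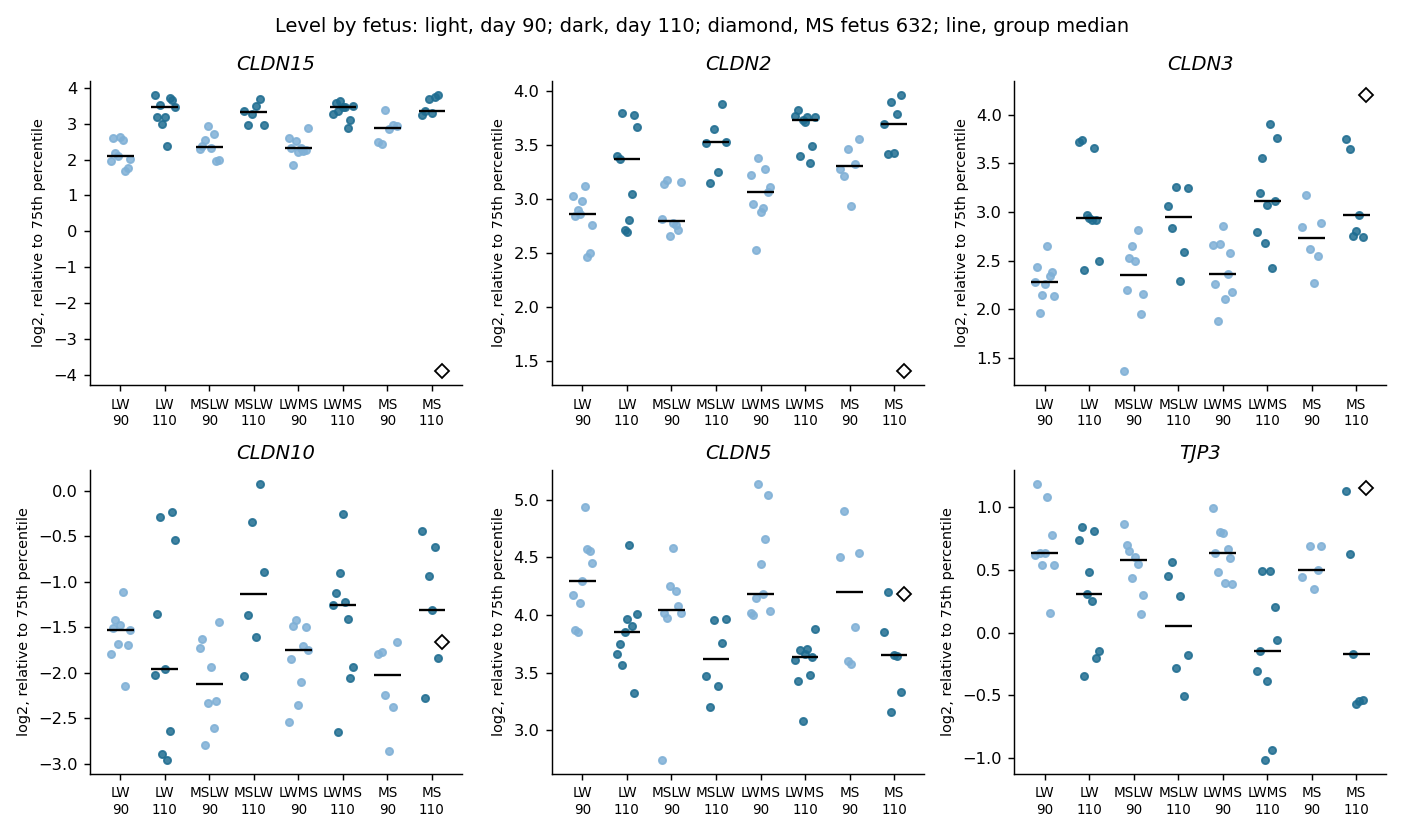
Level of CLDN15, CLDN2, CLDN3, CLDN10, CLDN5 and TJP3 in each fetus, on the log2 scale relative to the array's 75th percentile, by genotype and day, with group medians as lines. CLDN15, CLDN2 and CLDN3 have higher medians at day 110 in each genotype, CLDN5 and TJP3 lower ones, and the diamond of MS fetus 632 lies far below its group for CLDN15 and CLDN2.

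CLDN3, a sealing claudin abundant in intestinal epithelium, rose in both its probes. In LW, CLDN3 ranged from 1.97 to 2.65 (median 2.28, n = 9) at day 90 and from 2.40 to 3.74 (median 2.94, n = 9) at day 110. In MSLW, CLDN3 ranged from 1.37 to 2.81 (median 2.35, n = 8) at day 90 and from 2.30 to 3.26 (median 2.95, n = 6) at day 110. The fetus with the least CLDN3 was a MSLW fetus at day 90. In LWMS, CLDN3 ranged from 1.88 to 2.86 (median 2.37, n = 9) at day 90 and from 2.42 to 3.91 (median 3.11, n = 9) at day 110. In MS, CLDN3 ranged from 2.27 to 3.17 (median 2.74, n = 6) at day 90 and from 2.75 to 4.20 (median 2.97, n = 7) at day 110. Ranges of the 2 ages overlapped in every genotype while all 4 medians were higher at day 110. The mean difference was 0.68 ± 0.11 (SE), 1.60-fold with a 95% interval of 0.46 to 0.90 on the log2 scale (limma, adjusted p = 7.2e-07), and the second probe gave 0.60. CLDN3 was higher at day 110 within all 8 slides, by 0.29 to 1.19. By genotype it passed in LW (0.80) and LWMS (0.77) and not in MSLW (0.61, limma, adjusted p = 0.0691) or MS (0.54, adjusted p = 0.164). The difference between genotypes was not called (F test in limma, adjusted p = 0.981). Without fetus 632 the MS difference of CLDN3 was 0.38 in both probes. Without LW fetuses 484 and 469, whose arrays stood apart, the change in LW was 0.73 ± 0.21 (SE; limma, adjusted p = 0.0189), past the fold threshold and no longer past that on p.

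CLDN10, a claudin whose isoforms form ion pores in kidney and glands, rose on average. In LW, CLDN10 ranged from -2.14 to -1.11 (median -1.53, n = 9) at day 90 and from -2.96 to -0.23 (median -1.96, n = 9) at day 110. In MSLW, CLDN10 ranged from -2.79 to -1.44 (median -2.12, n = 8) at day 90 and from -2.04 to 0.081 (median -1.13, n = 6) at day 110. In LW the range of day 110 enclosed that of day 90 with a lower median, and in MSLW the median was about 1 log2 unit higher. In LWMS, CLDN10 ranged from -2.54 to -1.42 (median -1.75, n = 9) at day 90 and from -2.64 to -0.25 (median -1.25, n = 9) at day 110. In MS, CLDN10 ranged from -2.86 to -1.66 (median -2.02, n = 6) at day 90 and from -2.27 to -0.44 (median -1.30, n = 7) at day 110. The spread was wider at day 110 than at day 90 in all 4 genotypes. The mean difference was 0.57 ± 0.17 (SE; limma, adjusted p = 0.00489), and it was above 0 on 7 of 8 slides. With normexp background correction it was 0.48, under the fold threshold. No single genotype passed.

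The genomic neighbour of CLDN3, CLDN4, a sealing claudin too, differed by 0.22 ± 0.11 (SE; limma, adjusted p = 0.123), with levels of 1.57 to 3.44 over the fetuses. Its second probe differed by -0.015. CLDN7, a claudin of the lateral membrane, differed by 0.25 ± 0.091 (SE; limma, adjusted p = 0.0236), and CLDN12 by 0.37 ± 0.13 (SE; adjusted p = 0.017). Neither passed. CLDN11, known from myelin and the testis, differed by -0.28 ± 0.095 (SE; adjusted p = 0.016) and CLDN19, known from kidney, by -0.26 ± 0.10 (SE; adjusted p = 0.0371), which did not pass either. CLDN19 was between -3.24 and -1.27 and above background in 62 of 63 fetuses. CLDN6, a claudin of embryonic epithelia, differed by -0.061 ± 0.091 (SE), was between -4.33 and -2.68 and was above background in 62 fetuses. CLDN23 differed by -0.12 ± 0.14 (SE).

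CLDN5, the main claudin of endothelium, fell. In LW, CLDN5 ranged from 3.85 to 4.93 (median 4.29, n = 9) at day 90 and from 3.32 to 4.61 (median 3.85, n = 9) at day 110. In MSLW, CLDN5 ranged from 2.74 to 4.58 (median 4.05, n = 8) at day 90 and from 3.20 to 3.96 (median 3.61, n = 6) at day 110. In MSLW a single fetus at day 90, number 450, was the lowest of all 63. In LWMS, CLDN5 ranged from 4.00 to 5.14 (median 4.18, n = 9) at day 90 and from 3.08 to 3.87 (median 3.64, n = 9) at day 110. In MS, CLDN5 ranged from 3.57 to 4.90 (median 4.19, n = 6) at day 90 and from 3.16 to 4.20 (median 3.65, n = 7) at day 110. In LWMS every fetus at day 110 was below every fetus at day 90, and elsewhere the ranges overlapped. The mean difference was -0.53 ± 0.10 (SE), a 1.44-fold decrease with a 95% interval of -0.73 to -0.32 on the log2 scale (limma, adjusted p = 3.49e-05), and the second probe gave -0.67. On all 8 slides CLDN5 was lower at day 110, with differences of -0.86 to -0.21. Without the 6 arrays that stood apart it was -0.49, with array weights -0.46 and with scaling to the array median -0.48, all under the fold threshold.

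JAM2, an adhesion molecule of endothelial junctions, differed by -0.37 ± 0.069 (SE; limma, adjusted p = 1.38e-05), lower on all 8 slides and under the fold threshold. In MSLW alone among the genotypes it was called, at -0.57 (limma, adjusted p = 0.00508), and the difference between genotypes was not (F test in limma, adjusted p = 0.858). Beside CLDN5 and JAM2, of the endothelial markers KDR differed with age by -0.41, CDH5 by -0.29, TIE1 by -0.22, PECAM1 by -0.13, TEK by 0.093 and VWF by 0.47, and none passed. The summed level of 7 endothelial markers had group medians of 13.4 to 15.9 at day 90 and 14.5 to 17.1 at day 110. ROBO4 was above background on no array of LW or of MS at day 110. The part of endothelial cells in the CLDN5 difference was not tested. JAM3, found on endothelium and elsewhere, differed by -0.26 ± 0.10 (SE; limma, adjusted p = 0.0354) over levels of -3.63 to -1.50 and did not pass.

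Among the scaffold proteins, TJP3 fell and cingulin differed in the other direction. In LW, TJP3 ranged from 0.16 to 1.19 (median 0.63, n = 9) at day 90 and from -0.35 to 0.84 (median 0.31, n = 9) at day 110. In MSLW, TJP3 ranged from 0.14 to 0.87 (median 0.58, n = 8) at day 90 and from -0.51 to 0.56 (median 0.056, n = 6) at day 110. All medians of TJP3 were lower at day 110. In LWMS, TJP3 ranged from 0.39 to 0.99 (median 0.63, n = 9) at day 90 and from -1.02 to 0.49 (median -0.15, n = 9) at day 110. In MS, TJP3 ranged from 0.35 to 0.69 (median 0.50, n = 5) at day 90 and from -0.57 to 1.16 (median -0.17, n = 7) at day 110. The highest MS value at day 110 was that of fetus 632, and 1 MS spot at day 90 was missing as an outlier. The mean difference of TJP3 was -0.51 ± 0.11 (SE), 1.43-fold lower (limma, adjusted p = 0.000187), its second probe gave -0.50, and it was lower on all 8 slides. Of the genotypes it passed in LWMS at -0.82. In all, 4 other treatments of the intensities gave -0.48 to -0.50, just short of the fold threshold.

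CGN differed by 0.35 ± 0.089 (SE; limma, adjusted p = 0.00107), past the threshold on p and not on fold. TJP1, the best known scaffold of tight junctions, had a dim probe, above background in 35 of 63 fetuses at -6.40 to -3.85, and differed by -0.10 ± 0.12 (SE), with a 95% interval of -0.35 to 0.14. OCLN differed by 0.011 ± 0.053 (SE), with a 95% interval of -0.095 to 0.12, and its 5 probes gave -0.041 to 0.091. MARVELD2, the tricellulin of corners where cells meet, differed by 0.044 ± 0.079 (SE), and MARVELD3 by 0.0047 ± 0.090 (SE). Levels were 1.11 to 2.18 for OCLN and -0.11 to 1.61 for MARVELD3, above background in all 63 fetuses. F11R (JAM-A) differed by 0.16 ± 0.083 (SE; limma, adjusted p = 0.12) and did not pass.

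EPCAM had the smallest p of the 27 genes with all 63 fetuses, and its difference was small. In LW, EPCAM ranged from 5.11 to 5.69 (median 5.41, n = 9) at day 90 and from 5.36 to 6.10 (median 5.70, n = 9) at day 110. In MS, EPCAM ranged from 4.94 to 5.62 (median 5.08, n = 6) at day 90 and from 5.62 to 6.08 (median 5.71, n = 7) at day 110. The ages of MS met at 5.62 without overlapping, and those of LW overlapped. The mean difference was 0.44 ± 0.059 (SE; limma, adjusted p = 1.08e-08), and its 18 probes gave 0.39 to 0.57, all with adjusted p of at most 0.01 and 2 past the fold threshold. All 8 slides had EPCAM higher at day 110. By genotype, LW had 3 member probes called with age (4.76% of all tested probes), MSLW 2 (5.43%), LWMS 6 (9.86%) and MS 14 (3.12%). The 14 in MS were all EPCAM probes, which overlap in what they measure, so they count as 1 gene. Without fetus 632 the counts were 5 in LW (5.53% of all tested probes), 5 in MSLW (6.72%), 10 in LWMS (11.0%) and 14 in MS (3.51%), with CLDN15 added in the first 3 of these genotypes. Without LW fetuses 484 and 469 none of the 66 was called in LW, and without all 6 arrays that stood apart it was 7 in MSLW, 11 in LWMS and 8 in MS. The shares of all tested probes in these last settings are not given, so these counts are not set against the array.

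Of adherens junctions, CDH1 differed by 0.44 ± 0.10 (SE; limma, adjusted p = 0.000435), with levels of 0.96 to 3.14 in its brightest probe. That passes on p and not on fold, while a dimmer CDH1 probe passed both at 0.55 and another gave 0.11. Without fetus 632 none of the 3 CDH1 probes passed both, the highest difference being 0.55. CTNNA1 differed by 0.038 ± 0.046 (SE; levels 3.92 to 4.95) and CTNND1 by -0.0058 ± 0.061 (SE; levels 0.17 to 1.27). Their 95% intervals were -0.055 to 0.13 and -0.13 to 0.12. Of desmosomes, PKP2 differed by 0.24 ± 0.066 (SE; limma, adjusted p = 0.00343; levels -0.079 to 1.12), under the fold threshold, and JUP by -0.13 ± 0.088 (SE; levels 1.80 to 4.23). The brightest probes of these genes were above background in all 63 fetuses, the dimmer CDH1 probes in 52 and 40.

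Between the purebreds no member probe passed at either age by the rule used for age. At day 90, 0 of 66 probes were called in MS minus LW (limma, 3.58% of all tested probes called; 15 of the 66 at an unadjusted p under 0.05). At day 110 it was again 0 of 66 (limma, 5.00%; 19 at an unadjusted p under 0.05). JAM2 had the smallest adjusted p at day 90, -0.50 ± 0.14 (SE; limma, adjusted p = 0.0186). At day 110 CLDN23 differed by 0.83 ± 0.27 (SE; limma, adjusted p = 0.0398), CLDN12 by 0.76 ± 0.25 (SE; adjusted p = 0.0406) and OCLN by 0.31 ± 0.10 (SE; adjusted p = 0.0423), above the threshold on p. Without fetus 632 CLDN15 passed at day 90, 0.68 ± 0.18 higher in MS (SE; limma, adjusted p = 0.00751), with medians of 2.89 in MS and 2.09 in LW and 4.13% of all tested probes called. The difference is the same as with fetus 632, which is not in the groups of day 90, and the error is smaller. At day 110 without the 6 arrays that stood apart, CLDN7 passed at 0.67.

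Comparing MS with LW sires over both sow breeds and ages, with an adjusted p under 0.05 as the rule, 6 of 66 member probes differed, 5 higher and 1 lower with MS sires, against 6.95% of all tested probes, 3.11% higher and 3.84% lower. With the authors' processed values or quantile normalization it was 4 higher and 2 lower. Of all sire calls over the array, 44.8% were higher as reported, 41.8% with those values and 37.1% with quantile normalization. Of the 6 probes called as reported, 3 were CLDN12 probes, which hold 2 sequences.

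CLDN12, a claudin linked to calcium passage in the gut, was higher with MS sires. At day 90, CLDN12 ranged from -2.36 to -0.57 (median -1.71, n = 9) in LW and from -1.62 to 0.34 (median -0.43, n = 8) in MSLW. At day 90, CLDN12 ranged from -2.03 to -0.92 (median -1.41, n = 9) in LWMS and from -1.25 to -0.34 (median -0.55, n = 6) in MS. Within each breed of sow the fetuses of the MS sire had the higher median, with overlapping ranges. At day 110, CLDN12 ranged from -2.09 to 0.028 (median -1.24, n = 9) in LW and from -0.81 to 0.34 (median -0.44, n = 6) in MSLW. At day 110, CLDN12 ranged from -1.65 to -0.43 (median -0.81, n = 9) in LWMS and from -0.70 to -0.076 (median -0.19, n = 7) in MS. The order was the same at day 110. The mean sire difference was 0.73 ± 0.13 (SE), 1.65-fold with a 95% interval of 0.47 to 0.98 on the log2 scale (limma, adjusted p = 4.78e-05), and 0.67 in the probe of the other sequence. The sow difference was 0.013 ± 0.13 (SE). All 8 slides had CLDN12 higher with MS sires, by 0.41 to 1.46.

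Outside X and Y the crosses carry 1 set of chromosomes from each breed and differ in which parent gave it. All fetuses were male, and the study counts their X-linked genes as of maternal origin. MSLW minus LWMS, a comparison added after the sire result was seen, was 0.71 ± 0.18 (SE; limma, adjusted p = 0.024) for CLDN12. Of the 66 probes only the 3 CLDN12 probes, of 2 sequences, were called there, against 1.62% of all tested probes. This contrast uses fetuses that are in the sire contrast too and is not separate evidence. It also sets fetuses from LW sows against fetuses from MS sows.

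**Figure D3:**
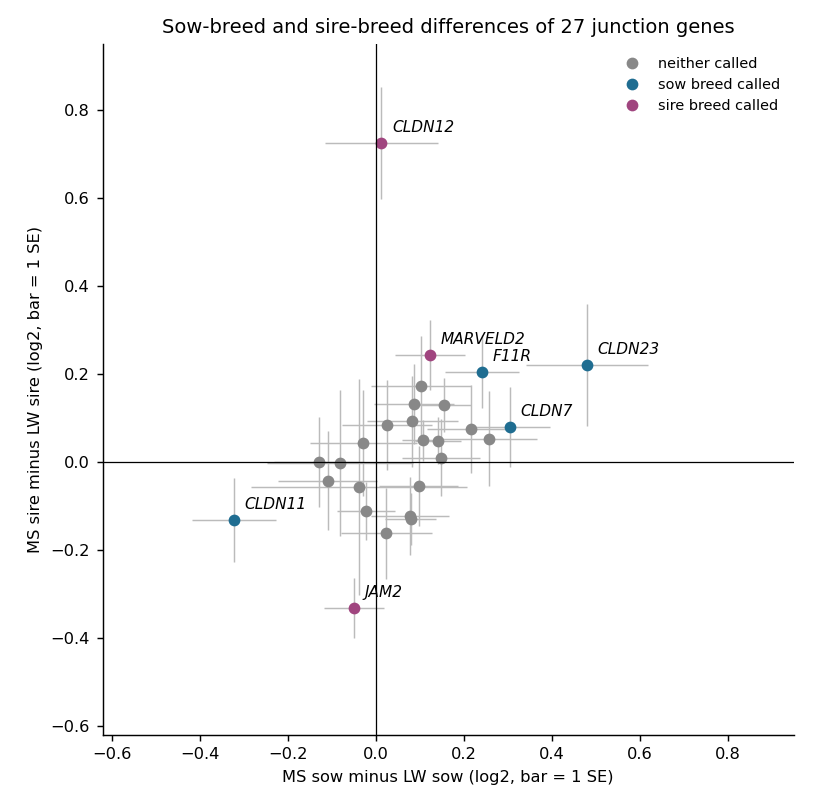
Sow-breed difference (horizontal) and sire-breed difference (vertical) of the 27 tested junction genes, MS minus LW on the log2 scale with bars of 1 SE. CLDN12 stands alone at 0.73 on the sire axis and 0.013 on the sow axis, and CLDN23 lies farthest to the right at 0.48.

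JAM2 was lower with MS sires. At day 90, JAM2 ranged from 0.35 to 0.82 (median 0.56, n = 9) in LW and from -0.16 to 0.42 (median 0.32, n = 8) in MSLW. At day 90, JAM2 ranged from 0.15 to 0.68 (median 0.39, n = 9) in LWMS and from -0.15 to 0.27 (median 0.025, n = 6) in MS. LW had the highest median and MS the lowest at this age, and the ranges of these 2 groups did not overlap. At day 110, JAM2 ranged from -0.28 to 0.60 (median 0.19, n = 9) in LW and from -0.52 to -0.086 (median -0.44, n = 6) in MSLW. At day 110, JAM2 ranged from -0.61 to 0.68 (median -0.039, n = 9) in LWMS and from -0.71 to 0.40 (median 0.036, n = 7) in MS. At day 110 MSLW had the lowest median, and the ranges of LWMS and MS lay largely over each other. The sire difference was -0.33 ± 0.069 (SE; limma, adjusted p = 0.0006), lower on 6 of 8 slides. Among endothelial markers KDR (-0.47, limma, adjusted p = 0.021) and TEK (-0.28, adjusted p = 0.0381) were lower with MS sires too, and the other 4 tested did not pass. Without fetus 632 TEK did not pass (adjusted p = 0.054). Outside the endothelium the fibroblast gene LUM was lower with MS sires (-0.36, limma, adjusted p = 0.00822) and the glial gene S100B higher (0.32, adjusted p = 0.02). The part of these markers in the JAM2 difference was not tested.

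MARVELD2 was higher with MS sires by a margin that other settings removed. At day 90, MARVELD2 ranged from -2.15 to -1.28 (median -1.58, n = 9) in LW and from -2.19 to -0.82 (median -1.61, n = 8) in MSLW. At day 90, MARVELD2 ranged from -2.01 to -1.26 (median -1.56, n = 9) in LWMS and from -1.66 to -0.91 (median -1.37, n = 6) in MS. The ranges overlapped and the medians of the groups from LW sows were alike at day 90. At day 110, MARVELD2 ranged from -2.03 to -1.20 (median -1.82, n = 9) in LW and from -1.55 to -1.15 (median -1.41, n = 6) in MSLW. At day 110, MARVELD2 ranged from -1.76 to -1.16 (median -1.58, n = 9) in LWMS and from -1.62 to -0.91 (median -1.37, n = 7) in MS. At day 110 the medians were higher with MS sires for both breeds of sow. The sire difference was 0.24 ± 0.079 (SE; limma, adjusted p = 0.047) and 0.21 with the slide as a block (adjusted p = 0.0759). A dimmer CTNND1 probe passed at 0.19 (limma, adjusted p = 0.0332) and the brightest did not, at 0.13.

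**Figure D4:**
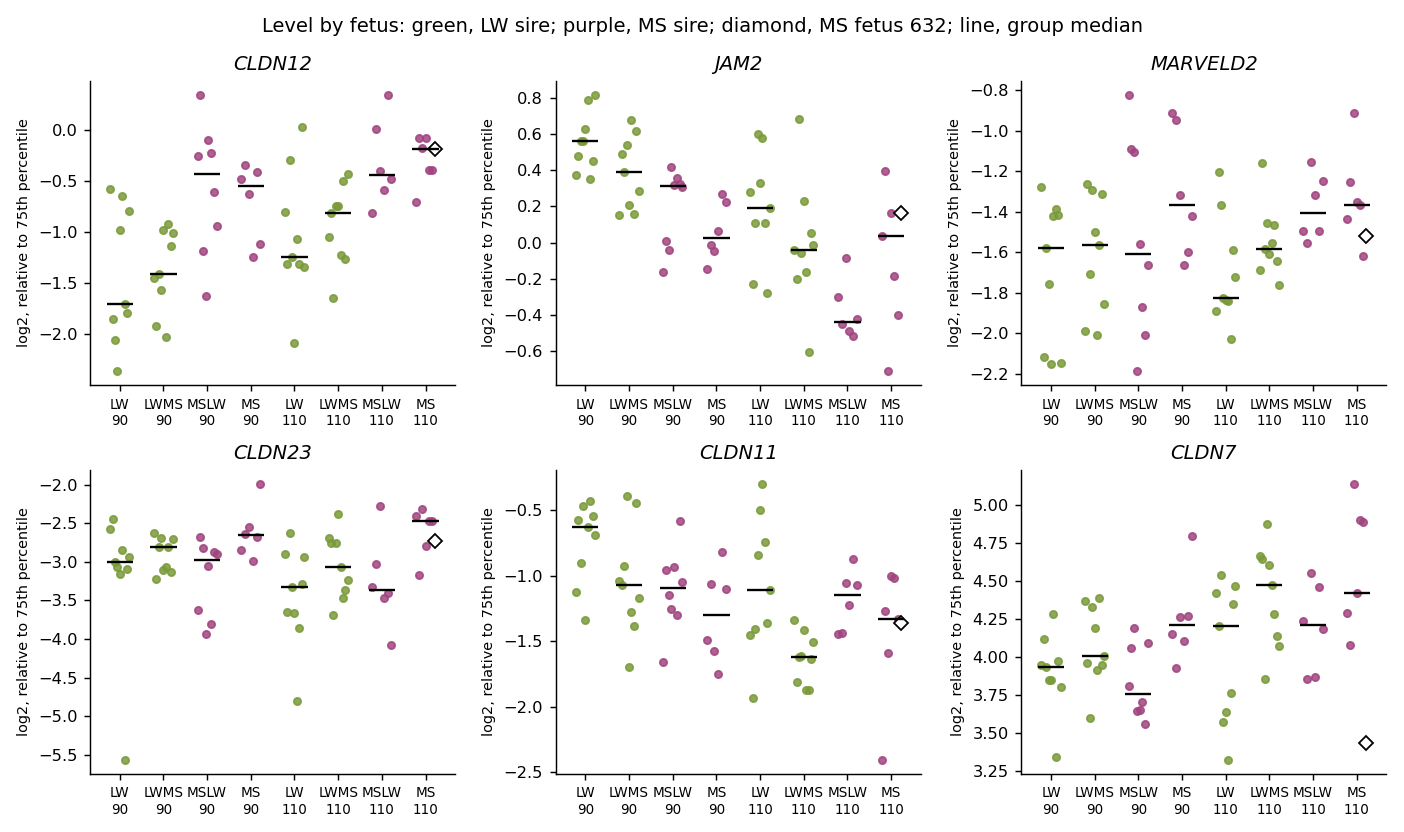
Level of CLDN12, JAM2, MARVELD2, CLDN23, CLDN11 and CLDN7 in each fetus, on the log2 scale relative to the array's 75th percentile, by group, green for LW sires and purple for MS sires, with group medians as lines. The purple groups have the higher CLDN12 medians within each breed of sow at both ages, and single low LW fetuses stand out for CLDN23.

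By the breed of the sow 9 of 66 member probes differed at an adjusted p under 0.05, 7 higher and 2 lower with MS sows, against 16.0% of all tested probes, 7.26% higher and 8.71% lower. Sow breed is the same throughout a litter, and the spread between sows is not in these p-values. The 2 lower probes hold 1 CLDN11 sequence, and 2 of the higher ones hold 1 CLDN7 sequence. With scaling to the array median 12 member probes were higher and 0 lower, and with quantile normalization 1 was higher and 1 lower. Of all sow calls over the array, 45.5% were higher as reported, 74.2% with scaling to the median and 53.8% with quantile normalization. The split of the calls thus moved with the scaling, while the sow differences of CLDN23, CLDN11, CLDN7 and F11R kept their sign. Without fetus 632, 13 probes were called (21.3% of all tested), CLDN2 (0.30, limma, adjusted p = 0.00185), CLDN15 (0.23, adjusted p = 0.0494) and the brightest OCLN probe (0.15, adjusted p = 0.0426) among them, all higher with MS sows. With fetus 632 the 2 CLDN15 probes were at -0.038 and -0.015.

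CLDN23 was higher with MS sows. At day 90, CLDN23 ranged from -5.57 to -2.45 (median -3.00, n = 9) in LW and from -3.22 to -2.63 (median -2.81, n = 9) in LWMS. At day 90, CLDN23 ranged from -3.93 to -2.68 (median -2.98, n = 8) in MSLW and from -2.99 to -1.98 (median -2.66, n = 6) in MS. The lowest value, of LW fetus 500, lay far from its group. At day 110, CLDN23 ranged from -4.80 to -2.62 (median -3.32, n = 9) in LW and from -3.69 to -2.38 (median -3.07, n = 9) in LWMS. At day 110, CLDN23 ranged from -4.08 to -2.27 (median -3.37, n = 6) in MSLW and from -3.17 to -2.31 (median -2.47, n = 7) in MS. The probe was dim, and the 4 fetuses in which it was not above background all had LW sows. The sow difference was 0.48 ± 0.14 (SE; limma, adjusted p = 0.0119) and above 0 on 6 of 8 slides.

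CLDN11 was lower with MS sows. At day 90, CLDN11 ranged from -1.34 to -0.43 (median -0.63, n = 9) in LW and from -1.69 to -0.39 (median -1.07, n = 9) in LWMS. At day 90, CLDN11 ranged from -1.66 to -0.58 (median -1.10, n = 8) in MSLW and from -1.75 to -0.82 (median -1.30, n = 6) in MS. The LW group at day 90 had the highest median of the 8. At day 110, CLDN11 ranged from -1.93 to -0.29 (median -1.11, n = 9) in LW and from -1.88 to -1.33 (median -1.62, n = 9) in LWMS. At day 110, CLDN11 ranged from -1.45 to -0.87 (median -1.15, n = 6) in MSLW and from -2.41 to -1.0 (median -1.33, n = 7) in MS. All these ranges overlapped between breeds of sow. The sow difference was -0.32 ± 0.095 (SE; limma, adjusted p = 0.0145), lower on 7 of 8 slides, and it did not pass when arrays were scaled to their median (-0.22, adjusted p = 0.157).

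CLDN7 was higher with MS sows. At day 90, CLDN7 ranged from 3.34 to 4.28 (median 3.93, n = 9) in LW and from 3.60 to 4.39 (median 4.01, n = 9) in LWMS. At day 90, CLDN7 ranged from 3.56 to 4.19 (median 3.76, n = 8) in MSLW and from 3.93 to 4.8 (median 4.21, n = 6) in MS. Both groups from MS sows had the higher median at day 90, with overlap. At day 110, CLDN7 ranged from 3.32 to 4.54 (median 4.20, n = 9) in LW and from 3.85 to 4.88 (median 4.47, n = 9) in LWMS. At day 110, CLDN7 ranged from 3.85 to 4.55 (median 4.21, n = 6) in MSLW and from 3.43 to 5.14 (median 4.42, n = 7) in MS. The same held at day 110. The sow difference was 0.30 ± 0.091 (SE; limma, adjusted p = 0.0158) and above 0 on all 8 slides.

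F11R passed by a narrow margin. At day 90, F11R ranged from 2.24 to 2.66 (median 2.39, n = 9) in LW and from 2.46 to 3.03 (median 2.56, n = 9) in LWMS. At day 90, F11R ranged from 2.47 to 2.77 (median 2.60, n = 8) in MSLW and from 2.52 to 3.33 (median 2.90, n = 6) in MS. Medians differed by less at day 90 between LW and LWMS than between MSLW and MS. At day 110, F11R ranged from 1.99 to 2.96 (median 2.66, n = 9) in LW and from 2.24 to 3.48 (median 2.94, n = 9) in LWMS. At day 110, F11R ranged from 2.21 to 3.09 (median 2.95, n = 6) in MSLW and from 2.36 to 3.93 (median 2.84, n = 7) in MS. The highest value was that of fetus 632, and at day 110 the MS median was below the MSLW median. The sow difference was 0.24 ± 0.083 (SE; limma, adjusted p = 0.0372), 0.20 without fetus 632 (adjusted p = 0.0515) and 0.20 with the slide as a block (adjusted p = 0.0556), neither of which passed. With that block the sire difference of F11R passed instead, at 0.25 (adjusted p = 0.0345), against 0.21 without it (adjusted p = 0.139). Single probes of OCLN (0.19), CTNNA1 (0.14) and EPCAM (0.20) also passed for the sow while the brightest probes of these genes did not. Among the epithelial markers, KRT8 was higher with MS sows by 0.21, and among the endothelial ones KDR differed by -0.51. Of the markers of enteric neurons and glia S100B was higher with MS sows by 0.44 (limma, adjusted p = 3.6e-04) and UCHL1 differed by -0.32 (adjusted p = 0.0329), and without fetus 632 TTR was higher by 0.65 (adjusted p = 0.00237). The part of these markers in the sow differences was not tested.

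Whether the change with age differed between the 4 genotypes was tested for each probe, and 0 of 66 member probes passed at an adjusted p under 0.05 (F test in limma, 0.0913% of all tested probes; 1 of the 66, an EPCAM probe, at an unadjusted p under 0.05). A call in 1 genotype and not in another is therefore not shown to be a difference between them, and equal changes are not shown either. By the F test over all 8 groups at an adjusted p under 0.01, 31 of 66 probes passed, against 28.7% of all tested probes, and 17 of the 31 measured EPCAM. Outside EPCAM these were probes of CLDN2, CLDN3, CLDN5, CLDN11, CLDN12, CGN, JAM2 and TJP3.

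In all, 9 genes stayed below the filter, and 8 of them are claudins. CLDN1, the claudin of the skin barrier, was above background in 7 of 63 fetuses, CLDN14 in 8, CLDN16, a claudin of kidney, in 5, CLDN20 in 3, CLDN22 in 5 and the desmosomal cadherin DSC2 in 2. CLDN17 was above background in 0 of 63. The highest levels reached were -2.43 for CLDN1, -3.55 for CLDN14, -2.97 for CLDN16, -4.53 for CLDN17, -4.75 for CLDN20, -1.45 for CLDN22 and -4.14 for DSC2. Not being above background on this array does not show that a gene is silent. CLDN8 was above background with both its probes in 6 fetuses, 3 at each age, fetus 632 being the highest of them.

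CLDN18, the claudin of stomach and lung epithelium, was seen mostly late. Both its probes were above background in 1 of 32 fetuses at day 90 and in 14 of 31 at day 110, which were 6 LW, 2 MSLW, 4 LWMS and 2 MS fetuses. The array of the 1 at day 90, LW fetus 484, stood apart. So did those of LW fetus 469 and MS fetus 623 among the 14 at day 110. Probe A_72_P200717 ranged from -8.51 to -2.95 with a median of -7.18 at day 90 and from -8.22 to -0.65 with a median of -6.29 at day 110. The 2 ages shared the low end of the range, and day 110 reached higher. When probes were not filtered, this probe was called with age at 1.81 ± 0.50 (SE; limma, adjusted p = 0.00389), and the other, A_72_P521902, was not, at 0.87 ± 0.42 (SE; adjusted p = 0.133). In the same fit no other probe below the filter was called with age. Since most of these values lie at the floor of the array, the size of the difference is uncertain.

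Stomach genes were read beside it. The pepsinogen C gene PGC ranged from -1.97 to -0.23 (median -0.94) at day 90 and from -6.17 to 4.73 (median -1.22) at day 110, the lowest being fetus 632. Its median was thus lower at day 110 while its highest values were higher. Gastric intrinsic factor (GIF), which the pancreas makes in some species, reached 2.46 at day 90 and 7.79 at day 110. PGC was above background in 62 of 63 fetuses and GIF in all 63, so neither was seen only with CLDN18. At day 110 their levels differed between fetuses with and without it. In the 14 fetuses with both CLDN18 probes above background, PGC was at 0.29 to 4.73 and GIF at 5.09 to 7.79. In every other fetus of day 110, PGC was at -1.18 or lower and GIF at 2.47 or lower. LW fetus 484, the 1 at day 90 with both CLDN18 probes above background, had PGC at -0.645 and GIF at -0.734. TFF1 was above background in 9 of 32 fetuses and then in 19 of 31, and GKN1, a protein of gastric surface cells, in 1 and then 9. Of the 10 fetuses with GKN1 above background, 8 were among the 15 with both CLDN18 probes above it. The summed level of the stomach markers ran from 0.14 to 239.9 over the groups of day 110. Their part in the CLDN18 levels was not tested.

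**Figure D5:**
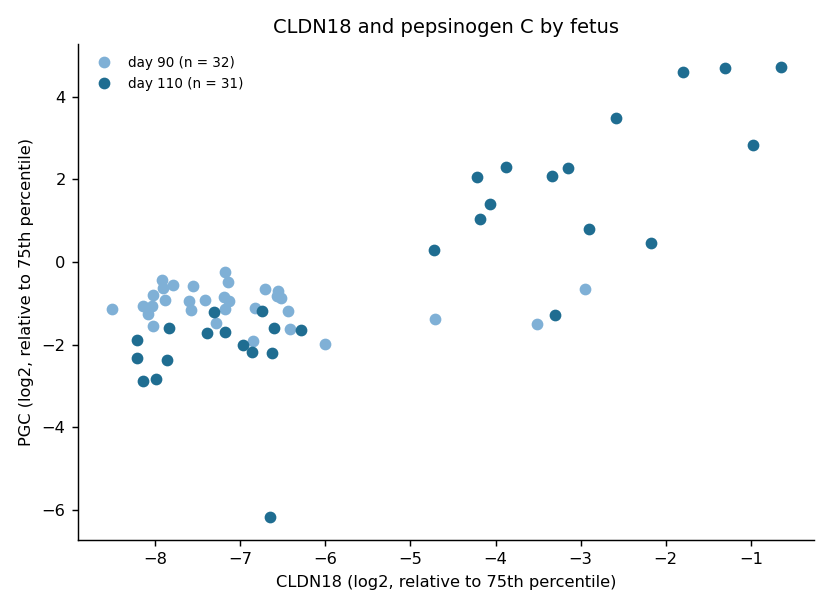
CLDN18 (probe A_72_P200717, horizontal) against pepsinogen C (PGC, vertical) in each fetus, both on the log2 scale relative to the array's 75th percentile, 32 fetuses at day 90 and 31 at day 110. Day 90 fetuses lie in a band of PGC between -1.97 and -0.23, and day 110 fetuses spread to 4.73.

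Other junction genes, on a list of 41 that are not members, were read in the same fits. Of these, 32 had a probe and 27 were tested, with a median age difference of 0.019. MPP5 (PALS1), a polarity scaffold, rose by 0.68 ± 0.13 (SE; limma, adjusted p = 1.63e-05), and periplakin (PPL), of desmosomes and the cornified envelope, fell by 0.94 (adjusted p = 3.27e-09). By adjusted p alone 4 were higher and 4 lower with age, such as the polarity gene INADL (0.48) and the cadherin CDH2 (-0.48), which passed on fold too without fetus 632 (-0.57). Among those higher with MS sows were AMOTL2, PERP, PVRL2 and, with fetus 632 but not without it, PPL (0.34, limma, adjusted p = 0.041, and 0.30, adjusted p = 0.056), and with MS sires 2 were higher, AMOTL1 and AMOTL2. AMOTL2, an angiomotin that binds YAP, had the largest of these sire differences, 1.70 ± 0.28 (SE; limma, adjusted p = 1.18e-05). In MS minus LW it passed at day 110, as did PERP, and at day 90 it differed by 2.08 without passing (limma, adjusted p = 0.0149).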

How the data were processed

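Total RNA of 63 jejuna was hybridised to one-colour Agilent arrays, 1 fetus per array, on 8 slides that each held both ages. The authors deposited the scanner output of Agilent Feature Extraction 10.10.1.1 (version from the submitters' processing notes, which also name limma), which holds the linear intensity of each spot, raw and background-subtracted, and its flags. They also deposited a table of log2 values for 39446 probes, used as an alternative. By comparison with the scanner values these look like log2 median intensities normalized across arrays (column medians 8.61). The methods name quality control, a normalization and the log2 transformation, and do not say which normalization it was.

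Control spots were left out, outlier spots were set to missing and spots of 1 probe were averaged. The log2 of the background-subtracted intensity minus the array's 75th percentile was used. Subtraction makes differences near the floor uncertain. The 8 group means were fitted to 40515 probes with limma 3.58.1 in R 4.3.3 (with the package data.table, version 1.17.8), and p-values are two-sided and adjusted by Benjamini and Hochberg over all of them. For age and MS minus LW, a call needed a log2 difference of 0.5 or more and an adjusted p no higher than 0.01, while the sow, sire and genotype by age tests needed only an adjusted p under 0.05, and the F test over groups one under 0.01. The methods fitted the sow as a random effect, which the labels used here do not allow. Groups came from the labels. The script was tested on simulated data.

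The members, the lists of related genes and the marker lists were chosen with earlier results of these data known. Values of all 8 groups are given for members whose brightest tested probe was called for age averaged over genotypes (up to 12), MS minus LW, sow or sire (up to 6 each), with CLDN15, CLDN2 and, in part, EPCAM added after their values were seen. No set test was run. Arrays limit precision by their number, and the number of fetuses per group was 6 to 9. Alternatives changed the values (the deposited table, or normexp correction of the background, offset 50), the scaling (quantile, or the array's median), the filter (none, or every array above background), the fit (slide as a block, or arrays weighted), the fetuses (LW fetuses 484 and 469 left out) and the minimum difference (none). Leaving out fetus 632 or all 6 arrays that stood apart, and the comparison of MSLW with LWMS, were added after seeing the data. Not every result of the other junction genes is reported here.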

Additional observations from a re-analysis of the deposited data

Results flagged for a closer look

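Within each group the highest or lowest fetus was set against its nearest neighbour for 17 genes in 8 groups, 136 checks in all, of which chance alone flags about 1 in 20. In 10 of them 1 fetus lay far from the others by Dixon's criterion. MS fetus 632 at day 110 was at -3.90 for CLDN15, where the nearest MS fetus was at 3.25, and at 1.41 for CLDN2, where the nearest was at 3.42. MSLW fetus 450 at day 90 was at 2.74 for CLDN5 with the nearest at 3.98. LW fetus 500 at day 90 was at -5.57 for CLDN23 with the nearest at -3.15. MS fetus 623 at day 110 was at -2.41 for CLDN11 with the nearest at -1.59. MSLW fetus 851 at day 110 was at 2.21 for F11R with the nearest at 2.83. LWMS fetus 872 at day 110 was the highest of its group for MARVELD2, at -1.16 with the nearest at -1.46. LW fetus 484 at day 90 was at 0.97 for CDH1 with the nearest at 1.83. For PKP2, LW fetus 575 at day 110 was at -0.028 with the nearest at 0.63, and LWMS fetus 405 at day 110 was at 0.21 with the nearest at 0.66. Fetuses 632, 623, 851 and 484 are among the 6 whose arrays stood apart. The origin of these values was not tested.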

How the results depend on the processing

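The differences followed through all alternatives that measured them kept their direction. With age averaged over genotypes these were CLDN3, CLDN10, CLDN5, TJP3, CLDN15, EPCAM, CLDN2, CDH1, CGN, JAM2 and PKP2. With the sow they were CLDN23, CLDN11, CLDN7 and F11R, and with the sire CLDN12, JAM2 and MARVELD2. Outside these, 2 CLDN15 differences turned without fetus 632. In its 2 probes, that with age in MS moved from -0.38 and -0.37 to between 0.61 and 0.68. That with the sow moved from -0.038 and -0.015 to 0.23. Counts of called member probes that moved by more than 1.5 times are grouped by setting. The shares of all tested probes are not given beside them, so these moves cannot be read as particular to these genes. With the authors' processed values the count for age averaged over genotypes was 6 (10 as reported), for age in MSLW 1 (2 as reported) and for the sow 4 (9 as reported). With quantile normalization these were 6, 1 and 2, and 1 probe was called in MS minus LW at day 90. With median centring, age gave 0 in LW, 0 in MSLW and 5 in MS. With array weights, age gave 5 in LW, 5 in MSLW and 11 in LWMS, and MS minus LW at day 110 gave 3. Without LW fetuses 484 and 469, age in LW gave 0. Without a minimum difference, age gave 32 on average and 12 in LWMS. Without fetus 632, age gave 5 in LW, 5 in MSLW and 10 in LWMS, and MS minus LW at day 90 gave 1. Without the 6 arrays that stood apart, age gave 7 in MSLW, 11 in LWMS and 8 in MS, and MS minus LW at day 110 gave 2. The cause was not tested. The sire, genotype by age and 8-group counts stayed within 1.5 times under all 11 alternatives. Median centring moved the sow median of all probes from 0.022 to 0.12, and changes are relative to that.

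CLDN3 with age and CLDN12 and JAM2 with the sire passed in all 11 alternatives, from 0.62 to 0.73, 0.64 to 0.77 and -0.38 to -0.31, and CLDN23 with the sow in all 10 that measured it, from 0.26 with normexp correction to 0.62 (0.48 as reported). CLDN10 missed its threshold in 1, CLDN5 in 3 and TJP3 in 4 of 11, each time on the fold. CLDN11 missed in 3, CLDN7 in 1 (0.19 to 0.41), F11R in 7 (0.11 to 0.34) and MARVELD2 in 6. CLDN15 passed for age in 4 of 11 and CLDN2 in 3. Dim probes limit CLDN18, CLDN8 and TJP1. No paired analysis was possible because the fetus numbers are unique and no number is shared between groups.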
